A study of Mus musculus with 13 samples.

Results

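Mouse embryonic fibroblasts (MEFs) made senescent with etoposide and then given 100 µg/mL Fucoidan-FV kept the gene expression of arrested cells and differed from proliferating MEFs in further genes. Against control MEFs, 60 of 63 genes of mitosis and 46 of 50 genes of DNA replication were lower, and the cell cycle inhibitor genes Cdkn1a and Cdkn2a were higher by 1.62 and 1.98 on the log2 scale. Of 39 actin and contractile genes 10 were lower and 3 higher. Of 35 immediate early and ERK feedback genes 11 were lower and 1 higher. Of 59 matrix genes 18 were higher and 6 lower, with a median log2 fold change of 0.22. Over all 15034 genes 10.3% were higher and 9.37% lower. Single genes that were lower included Itga5 (-2.49), Csf1 (-1.92) and Etv4 (-4.17), and genes that were higher included Col3a1 (2.14), Itga11 (2.94) and Igf1 (4.28). These 6 genes also differed between treated and untreated senescent MEFs. The comparison holds the 3 libraries of the treated senescent cells and the 4 libraries of the non-senescent control cells, 7 of the 13 libraries of the series. They were chosen by their labels and not by any measured value. Control mouse 5 has libraries 5(1) and 5(2), whose counts were summed, so that each side has 3 mice.

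Cellular senescence is a lasting exit from the cell cycle that damaged cells enter through the p53-p21 (Cdkn1a) and p16-Rb (Cdkn2a) pathways. Senescent cells (SnCs) remain metabolically active, enlarge their lysosomes and release cytokines, growth factors and proteases, together called the senescence-associated secretory phenotype (SASP). A senomorphic agent changes this secretion without returning the cell to division. A comparison with proliferating cells therefore shows which part of the senescent state is still present in treated cells. With untreated senescent cells beside it, genes of treated cells that lie outside the range of both states can be listed.

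All cells were wild-type (WT) MEFs, which are primary fibroblasts of mouse embryos, and all were labelled by mouse 4, 5 or 6. Control MEFs received neither etoposide nor fucoidan. Treated senescent MEFs received 2 µM etoposide, a topoisomerase II inhibitor that breaks DNA, for 24 h, 5 days of recovery, and then 12 h of 100 µg/mL Fucoidan-FV, a sulfated polysaccharide of the brown seaweed Fucus vesiculosus. Untreated senescent MEFs received the same etoposide and recovery without fucoidan, and their values stand beside the comparison for part of the genes. A change against control alone does not say whether treated and untreated senescent MEFs differ. The senescent groups are told apart by their labels alone, and no gene measured here checks which senescent library received fucoidan, so each direction between treated and untreated senescent MEFs rests on those labels. Senescent cells given 300 µg/mL entered the fit only to share its estimate of the spread. The labels of the controls name no drug and no recovery period. Whether they had the same days in culture is not stated, so time in culture and senescence cannot be told apart. In bulk RNA fewer cells of a type and less RNA per cell cannot be told apart either. No control cells with fucoidan were analysed here.

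The libraries held 22782536 to 31278750 expected counts each. Genes with a count above 0 numbered 17778 in control mouse 4, 15559 and 18497 in libraries 5(1) and 5(2), and 14774 in control mouse 6. They numbered 21049, 20686 and 18160 in treated and 19200, 16436 and 19408 in untreated senescent mice 4, 5 and 6. The part of this in the increases of genes near 0 in control was not tested. Values are CPM, a library's counts scaled to a common size after TMM normalisation, listed for mice 4, 5 and 6 in that order. A fold change is log2 of treated senescent over control with its standard error (SE, also written after ±), and a differentially expressed gene (DEG) passed edgeR's quasi-likelihood test at an adjusted p below 0.05, corrected over 15034 genes, with a log2 fold change above 1 or below -1. 1 technical property varied between libraries of the same group. In the 2229 tested genes with over 95% of their sequence held by a single annotated transcript, the median deviation from the gene's mean ran from -1.36 (log2) in control mouse 6 to 0.91 in treated mouse 5, and within control mouse 5 library 5(2) lay 1.86 above library 5(1), against -0.16 in the 9614 genes under 65%. The median log2 fold change of treated against control was 0.54 in the former genes and lay between -0.05 and -0.002 in the classes under 65%. Its part in single results was not tested beyond a fit with an offset for this property, given beside the genes and lists whose values it moves most. The offset shifted the median fold change of all genes by -0.12.

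How far the treated cells lay from control cells was measured first over all 15034 genes, as the root mean square difference in log2 CPM from the mean of the control mice (for a control mouse, from the other control mice). Treated senescent mice 4, 5 and 6 lay 1.465, 1.501 and 1.506 from control. Untreated senescent mice lay 1.18, 1.33 and 1.25 from control. All 3 treated mice were thus farther from control than all 3 untreated senescent mice, by 0.235 on average. An exact two-sided permutation test of 3 against 3 gave p = 0.1, the smallest that it can give, so the design cannot reach 0.05. The test did not pair the senescent samples by mouse number. Control mice 4 and 5 lay 0.924 and 0.792 from the other controls. Control mouse 6 lay 1.335 from them, above every untreated senescent mouse (highest 1.331) and below every treated mouse. With a prior count of 0.5 in place of 2, control mouse 6 lay at 1.717, within the range of treated mice 4, 5 and 6 (1.713, 1.751 and 1.779). Over the genes under 65%, the treated mice lay 1.41, 1.44 and 1.52 and the untreated senescent mice 1.19, 1.33 and 1.25 from control, with control mouse 6 at 1.14. Without control mouse 6 the difference between the senescent groups was 0.199 (exact permutation test, p = 0.2). By the median absolute difference in place of the root mean square, treated mice lay 0.768, 0.787 and 0.708 and untreated senescent mice 0.538, 0.610 and 0.711 from control, so that the groups overlapped at mouse 6 (exact permutation test, p = 0.2).

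**Figure D1:**
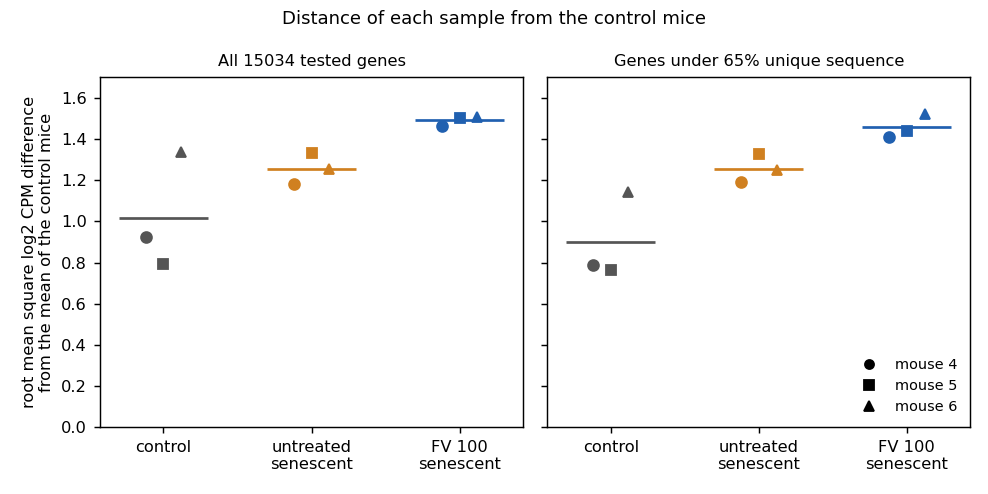
Root mean square difference in log2 CPM from the mean of the control mice (vertical axis), for each control, untreated senescent and Fucoidan-FV-treated (FV 100) senescent mouse, over all 15034 tested genes (left) and the 9614 genes with under 65% single-transcript sequence (right). Points are mice and lines are group means. The treated mice sit between 1.41 and 1.52 in both panels, above the untreated senescent mice.

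Distances between single mice use no group mean. A treated and a control mouse differed by 1.37 to 2.04 (median 1.46 over 9 pairs), and an untreated senescent and a control mouse by 1.14 to 1.77 (median 1.35). The ranges overlapped. Treated mice differed among themselves by 0.537 to 0.945, and control mice by 0.724 to 1.44. Pairs share mice, so these ranges describe the data and were not tested.

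Of the 15034 genes, 2955 (19.7%) were DEGs between treated senescent and control MEFs, 1546 (10.3%) higher and 1409 (9.37%) lower. A fold change beyond 3 on the log2 scale was found in 771 DEGs. Values of the treated and control mice did not overlap in 7265 genes (48.3%). Untreated senescent MEFs against the same controls had 1266 DEGs (8.42%), 672 (4.47%) higher and 594 (3.95%) lower. The fits share the control mice, so they are set side by side here and not correlated. The direct comparison of treated with untreated senescent MEFs gave 405 DEGs (2.69%), 165 higher and 240 lower. This last count and its split were less stable than the others: it was 321 (174 higher) with RLE scaling, and 189 without untreated senescent mouse 6, 209 without untreated senescent mouse 5, and 136, 157 and 221 without treated mouse 4, 5 and 6. Without control mouse 6, treated against control MEFs had 2677 DEGs, 1653 of them higher. With the offset for single-transcript sequence there were 3322 DEGs, and 2803 of the 2955 kept their call and direction. Counts of the gene lists below are to be read beside the shares of all genes, 19.7%, 8.42% and 2.69%.

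**Figure D2:**
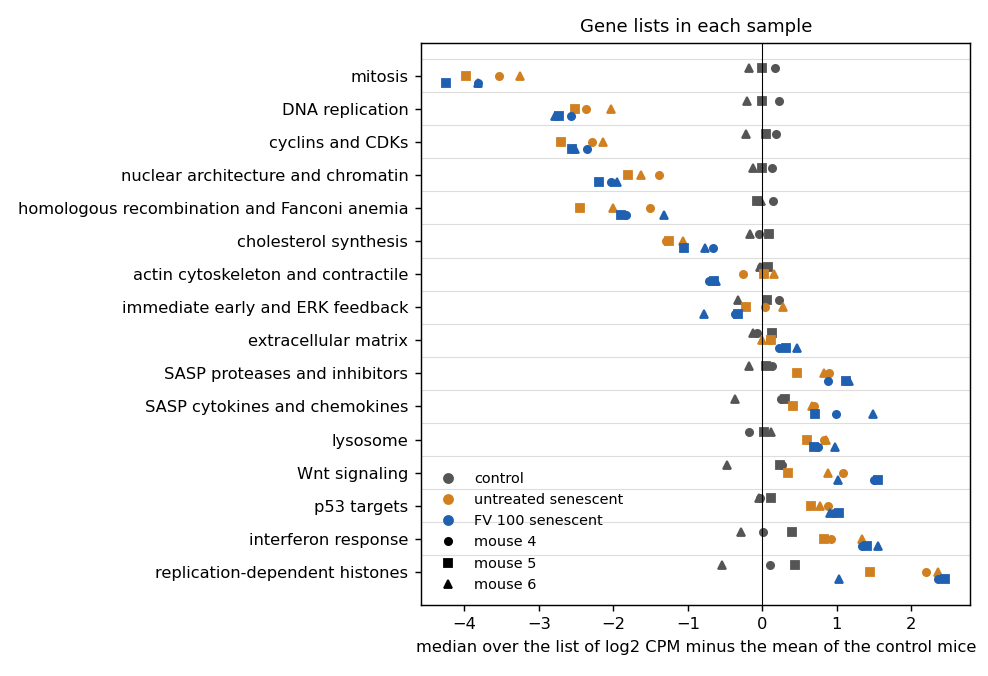
Median over each gene list of the log2 CPM minus the mean of the control mice (horizontal axis), in each mouse of the 3 groups. Each point is a mouse. Lists of the cell cycle lie far to the left in both senescent groups, with mitosis at -4.25 to -3.81 in the treated mice. The actin and the immediate early lists lie left of control in the treated mice and beside control in the untreated senescent mice. In the immediate early list treated mice 4 and 5 (-0.37 and -0.33) lie close to control mouse 6 (-0.32).

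Cell cycle genes of control MEFs were far lower in the treated cells. Of 63 tested genes of mitosis, 60 were lower than in control and none higher, with a median log2 fold change of -4.00. The exceptions were Pttg1, Ckap5 and Fzr1. Of 50 genes of DNA replication, 46 were lower, with a median of -2.98, and of 18 cyclins and CDKs 13 were lower. Over all 15034 genes the median was 0.09 and 9.37% were lower. Without control mouse 6 the counts for mitosis and DNA replication were again 60 and 46. In untreated senescent MEFs 58 and 41 of these genes were lower than in control, with medians of -3.60 and -2.42.

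Cyclin B1 (Ccnb1, ENSMUSG00000041431, chr13:100915153-100923116, minus strand in GRCm39), the partner of Cdk1 at mitotic entry, had 158, 145 and 167 CPM in control mice and 2.97, 1.17 and 7.16 CPM in treated mice. Every treated mouse was below every control mouse, at a log2 fold change of -5.37 ± 0.68 (adjusted p = 0.000112). Ccna2, the S and G2 phase cyclin, fell from 122, 104 and 103 to 3.0, 2.35 and 6.30 CPM, by 4.82 on the log2 scale (adjusted p = 3.7e-05). For Cdk1 itself the values were 172, 158 and 153 CPM in control and 7.67, 4.85 and 10.5 CPM in treated mice, a log2 fold change of -4.39 ± 0.36 (adjusted p = 6.57e-06). Mki67, the gene of the proliferation antigen Ki-67, was spread widely in control, at 68.1, 40.2 and 17.2 CPM, and stood at 2.88, 1.29 and 1.73 CPM in treated mice. The groups did not overlap, and the log2 fold change was -4.40 (SE 0.68, adjusted p = 0.000436). Among kinetochore and spindle genes, Kif23, a cytokinesis motor, changed by -5.40, the checkpoint kinase gene Bub1 by -5.36 and Kif15, a spindle motor, by -5.62. Aurka, the centrosome kinase, had 90.5, 87.0 and 65.6 CPM in control and 3.16, 3.41 and 2.49 CPM in treated mice (log2 fold change -4.74, SE 0.47, adjusted p = 2.11e-05). Of its exonic bases 38.23% lie opposite another gene, and whether reads were counted by strand is not given in the sources used here, so reads of that gene cannot be told apart from its own.

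Many mitotic genes carry a cell cycle homology region (CHR) in their promoter, to which the DREAM and MuvB complexes bind, often near CCAAT boxes. To show what such promoters look like in genes that moved here, the 250 bases before the start are printed for the 4 DEGs of the mitosis list with the highest control level whose promoter holds a CHR, written TTTGAA or TTCGAA on either strand. Sequences are from RefSeq (GRCm38.p6), 5′ to 3′ on the gene's strand, with the CHR in capitals. Ube2s, an E2 enzyme of the anaphase-promoting complex, lies at chr7:4812341-4812590, minus strand. Bub3, a spindle checkpoint protein, lies at chr7:131560120-131560369, plus strand. Prc1, which bundles the spindle midzone, lies at chr7:80294226-80294475, plus strand, and Smc2, a condensin subunit, at chr4:52438971-52439220, plus strand.
Ube2s: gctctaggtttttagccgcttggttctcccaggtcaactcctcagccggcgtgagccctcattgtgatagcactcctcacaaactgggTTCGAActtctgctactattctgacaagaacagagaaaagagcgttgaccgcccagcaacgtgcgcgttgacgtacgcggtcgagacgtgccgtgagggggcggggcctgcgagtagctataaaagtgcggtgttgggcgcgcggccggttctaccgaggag
Bub3: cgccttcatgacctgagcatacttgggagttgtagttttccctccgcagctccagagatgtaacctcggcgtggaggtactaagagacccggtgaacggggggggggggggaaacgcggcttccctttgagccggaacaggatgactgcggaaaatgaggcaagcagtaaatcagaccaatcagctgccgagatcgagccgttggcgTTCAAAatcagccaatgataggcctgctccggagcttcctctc
Prc1: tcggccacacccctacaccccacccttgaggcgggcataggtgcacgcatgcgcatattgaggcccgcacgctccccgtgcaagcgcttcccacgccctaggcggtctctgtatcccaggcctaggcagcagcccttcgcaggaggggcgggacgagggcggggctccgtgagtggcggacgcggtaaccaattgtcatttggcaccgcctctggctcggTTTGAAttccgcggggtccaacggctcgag
Smc2: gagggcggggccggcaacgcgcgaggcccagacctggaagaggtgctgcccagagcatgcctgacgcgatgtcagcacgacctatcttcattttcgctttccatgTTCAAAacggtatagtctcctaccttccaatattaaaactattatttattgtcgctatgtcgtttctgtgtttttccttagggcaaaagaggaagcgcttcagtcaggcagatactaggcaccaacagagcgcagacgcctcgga
The CHR begins 162, 43, 30 and 145 bases before the start in the 4 promoters, and CCAAT on either strand occurs 0, 2, 1 and 1 times. In Bub3 and Smc2 it reads TTCAAA, the reverse complement of TTTGAA. Of 58 listed promoters of 54 mitosis genes, 23 (39.7%) held a CHR, against 17.1% of all 32851 promoters of the same length. CCAAT was found in 69.0% and 33.8%, and both motifs in 34.5% and 6.02%. Of 46 promoters of 40 DNA replication genes, 17.4% held a CHR. These matches describe letters only, not binding.

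In the treated cells these 4 genes were lower than in control, by unlike amounts. Ube2s had 242, 269.9 and 218 CPM in control and 69.8, 61.6 and 74.9 CPM in treated mice, a log2 fold change of -1.82. Bub3 changed by -1.12, Prc1 by -4.74 and Smc2 by -2.83.

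The replication machinery followed. Mcm6, a subunit of the replicative helicase, had 232, 205 and 269 CPM in control, 19.8, 21.9 and 33.6 CPM in untreated senescent and 10.4, 11.2 and 13.8 CPM in treated mice. The 3 groups did not overlap. Its log2 fold change against control was -4.32 (SE 0.30, adjusted p = 1.96e-06), and it was also lower than in untreated senescent cells, by 1.09 on the log2 scale (adjusted p = 0.0395), a call that held in 7 of 17 other settings (settings without a fold limit or with a test against it are not counted here or below). Mcm5, of the same helicase, changed by -5.17, and Clspn, which links stalled forks to Chek1, by -5.02. Rpa1, the large subunit of the single-strand binding protein, had 257, 241 and 208 CPM in control, 114, 141 and 169 CPM in untreated senescent and 62.2, 56.0 and 71.5 CPM in treated mice. Treated cells were below control by 1.90 and below untreated senescent cells by 1.16 on the log2 scale (adjusted p = 1.77e-05 and 0.00542). The clamp loader gene Rfc5, at 65.8, 65 and 65.1 CPM in control and 13.8, 11.9 and 19.5 CPM in treated mice, changed by -2.12 (SE 0.31, adjusted p = 0.000341). Opposite-strand genes overlap 36.16% of Rfc5.

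Of the E2F and DREAM factors, which activate or repress these genes, 8 of 19 were lower and 1 was higher, with a median of -0.81 (-1.10 with the offset). E2f7, a repressor made in S phase, changed by -5.56, E2f8 by -4.78 and Mybl2, the activator of mitotic genes in the MuvB complex, by -4.74. Rb1, the retinoblastoma protein gene, was the higher one, at 5.44, 3.87 and 1.79 CPM in control and 22, 21.7 and 9.69 CPM in treated mice (log2 fold change 2.26, SE 0.50, adjusted p = 0.00473).

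DNA repair genes were counted by pathway, and the pathways were not tested against each other. Homologous recombination and Fanconi anemia genes, which act in S and G2 phase, were lower in 20 of 35 and higher in none, with a median of -1.80. Exo1, an end resection nuclease, had 13.7, 8.26 and 5.97 CPM in control and 0.407, 0.151 and 0.311 CPM in treated mice (-4.97 on the log2 scale), and Fanca, of the Fanconi core complex, changed by -5.21. Base excision and mismatch repair genes were lower in 6 of 22, among them the uracil glycosylase Ung (-3.17) and the mismatch gene Pms2 (-1.48). End joining, which works throughout the cycle, had 3 lower and 1 higher of 17 genes. The lower ones were Polq (-3.13), Rif1 (-1.26) and Xrcc6 (-1.24), and the higher one was Paxx (1.34). Rif1 lost its call whichever 1 of the 6 mice was left out (log2 fold change -1.30 to -0.88). Xrcc6 lost its call without control mouse 6 (-0.95), and Paxx in 8 of 20 other settings, the mouse block included (adjusted p = 0.0686). The list median of 0.22 turned to -0.46 with the offset for single-transcript sequence, so its sign depends on the processing. Nucleotide excision repair had 2 lower and 2 higher of 23. For both lists the share called is near the 19.7% of all genes.

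Ercc1, whose protein cuts beside bulky lesions and crosslinks, had 54.9, 51.4 and 32.1 CPM in control, 32.2, 39.5 and 64.8 CPM in untreated senescent and 21.7, 20.9 and 21.1 CPM in treated mice. All 3 treated mice were below all other mice. Against control the log2 fold change was -1.12 (SE 0.31, adjusted p = 0.017), and the call was lost without control mouse 4 (-0.82), control mouse 5 (-0.87), treated mouse 4 (-1.13) or treated mouse 5 (-1.11). Ercc5, the 3′ nuclease of the same pathway, was higher, at 33.3, 31.9 and 44.0 CPM in control and 83.2, 84.5 and 123 CPM in treated mice (log2 fold change 1.41, SE 0.24, adjusted p = 0.000833). Checkpoint genes were lower in 4 of 11, led by Chek1 (-2.74), beside 9.37% of all genes. For the sirtuins, 10.3% of all genes were higher. Of 7 sirtuins, Sirt4 (1.27) and Sirt5 (1.01) were higher, calls that were lost whichever treated mouse was left out (1.22 to 1.36 and 0.91 to 1.05). Sirt6, the deacylase and ADP-ribosyltransferase that the study is concerned with, had 13, 13.9 and 9.82 CPM in control and 10.5, 11.1 and 8.17 CPM in treated mice, with overlapping groups and a log2 fold change of -0.31 ± 0.28 (adjusted p = 0.448).

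Nuclear architecture and chromatin genes were lower in 20 of 29 and higher in none, with a median of -2.11. Lmnb1, the B-type lamin whose loss marks senescence, had 46.1, 28.3 and 13 CPM in control, 1.69, 1.29 and 2.45 CPM in untreated senescent and 2.19, 2.35 and 1.8 CPM in treated mice. Both senescent groups lay below all controls, and the log2 fold change of treated cells was -3.79 (SE 0.53, adjusted p = 0.000226). Hmgb2, a chromatin protein of dividing cells, changed by -3.61, and Uhrf1, which carries DNA methylation through replication, by -5.36. Replication-dependent histone genes went the other way: 20 of 31 tested were higher and none lower, with a median of 2.28. Of those 31, 27 have over 95% single-transcript sequence, and with the offset for it 12 were higher, with a median of 1.46. With the mouse number as a block 13 were higher. H1f4, a linker histone, had 0.127, 0.196 and 0 CPM in control and 3.19, 3.45 and 1.18 CPM in treated mice. Histone genes are near-identical copies and reads can be split among them, so single members are uncertain.

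Of 7 tested CDK inhibitors, which hold cells in arrest, 4 were higher and 1 was lower than in control. Cdkn1a (ENSMUSG00000023067, chr17:29309936-29319701, plus strand in GRCm39), the gene of p21, had 373, 504 and 527 CPM in control, 1569, 1866 and 1519.9 CPM in untreated senescent and 1254, 1455 and 1613 CPM in treated mice. Treated mice were all above control, at a log2 fold change of 1.62 ± 0.18 (adjusted p = 4.76e-05), while treated against untreated senescent cells gave -0.20 (SE 0.18, adjusted p = 0.596). Cdkn2a, the locus of p16 and p19Arf, had 36.9, 53.7 and 45.1 CPM in control, 203, 191 and 351 CPM in untreated senescent and 185, 205 and 145 CPM in treated mice. Its log2 fold change against control was 1.98 (SE 0.25, adjusted p = 9.9e-05), and against untreated senescent cells -0.48 (SE 0.24, adjusted p = 0.292). The file counts the gene as a whole and cannot tell p16 from p19Arf. Cdkn2b, the gene of p15, overlapped between the groups, at 14.9, 20.6 and 4.28 CPM in control and 65.3, 78.9 and 19.8 CPM in treated mice (log2 fold change 2.04, SE 0.71, adjusted p = 0.0481). All of its sequence is held by a single transcript, the offset gave 1.27, and the call was lost in 8 of 18 other settings, among them with the mouse number as a block (adjusted p = 0.0665), with any 1 control mouse left out and without treated mouse 4 or 5 (1.68 to 2.72). Cdkn1c, the gene of p57, was higher than in control (1.16) and than in untreated senescent cells (1.34). Cdkn2c was the 1 inhibitor that was lower (-2.37).

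Targets of p53 were higher in 14 of 31 and lower in 1, with a median of 1.06 (0.57 with the offset). Fas, the death receptor gene, had 4.59, 4.69 and 3.62 CPM in control and 60.5, 62.7 and 96.6 CPM in treated mice, a log2 fold change of 4.09 ± 0.25 (adjusted p = 1.05e-06). Mdm2, which returns p53 to low levels, had 125, 143 and 230.3 CPM in control and 313, 327 and 396 CPM in treated mice (1.06, and 0.94 without treated mouse 6, which ends the call), and Trp53inp1 had 28.7, 47.2 and 79.4 CPM in control and 249, 277 and 457 CPM in treated mice (2.66). Perp, a p53 target of the desmosome, was near 0 in control and at 15.3, 15.5 and 3.56 CPM in treated mice, with all of its sequence in a single transcript. Plk3 was the lower one. It had 33.4, 41.1 and 50.1 CPM in control, 23.6, 29.8 and 32.3 CPM in untreated senescent and 10.02, 13 and 11.8 CPM in treated mice, and was lower than both (log2 -1.84 and -1.30, adjusted p = 0.000138 and 0.01).

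**Figure D3:**
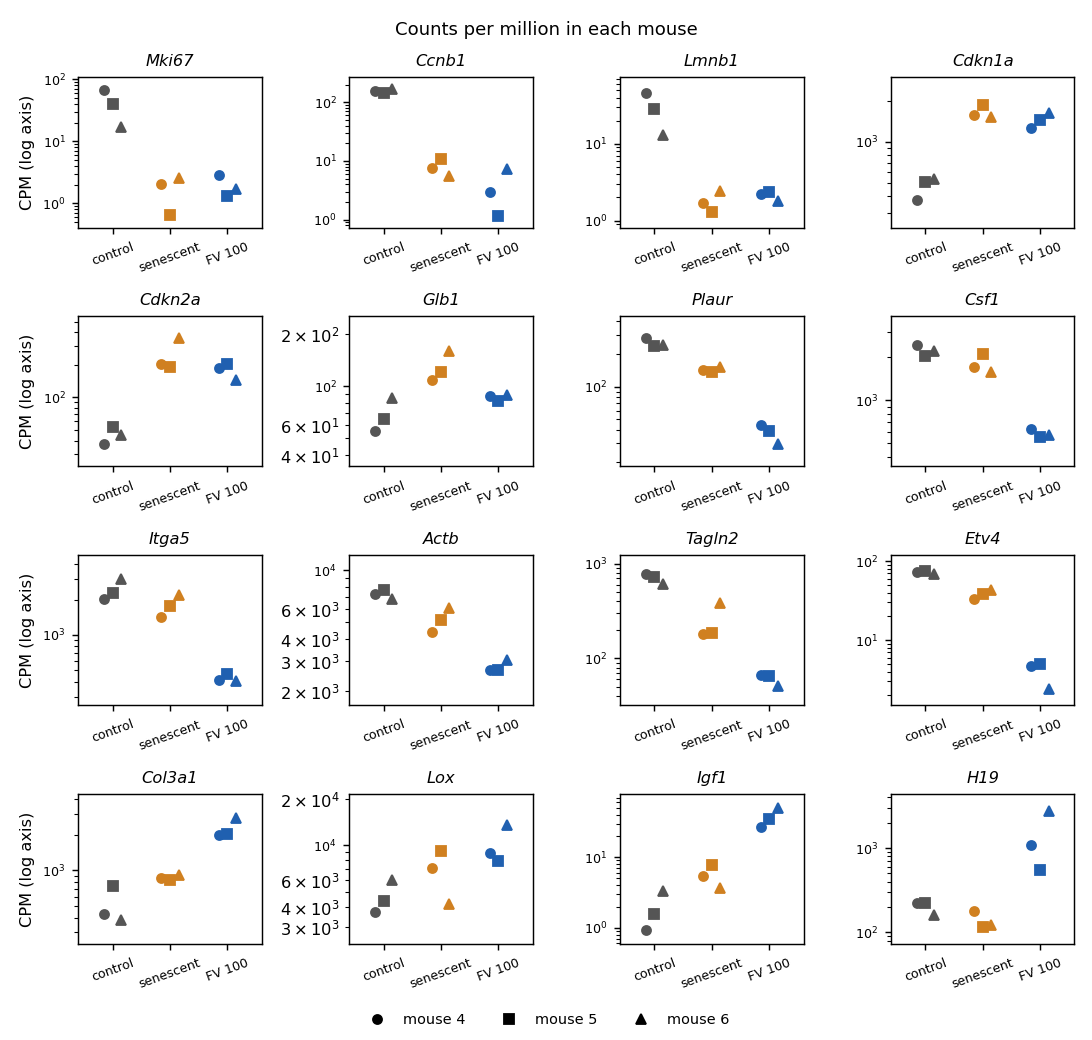
CPM of 16 genes in each mouse of the control, untreated senescent (senescent) and Fucoidan-FV-treated senescent (FV 100) groups, on a log axis set for each gene. Each point is a mouse. Mki67, Ccnb1 and Lmnb1 are low and Cdkn1a and Cdkn2a high in both senescent groups, whereas Csf1, Itga5 and Etv4 are low and Col3a1, Igf1 and H19 high in the treated group, with no overlap between treated and other mice.

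Factors of the SASP lay on both sides of control, with more genes higher than lower in each list. Of 22 tested cytokines and chemokines 7 were higher and 1 lower, of 30 growth factors and binding proteins 10 higher and 2 lower, of 24 proteases and inhibitors 10 higher and 5 lower, and of 12 surface receptors 6 higher and 1 lower. Their medians were 0.98, 0.88, 1.05 and 1.46. In untreated senescent cells 3, 6, 6 and 4 genes of these lists were higher than in control, and 0, 0, 1 and 0 lower. Treated against untreated senescent cells gave 1, 4, 3 and 4 higher and 1, 2, 5 and 1 lower. Of all 15034 genes, 10.3% were higher and 9.37% lower in treated cells than in control. For untreated senescent cells against control these shares were 4.47% and 3.95%, and 2.69% were DEGs between the senescent groups. With the offset 3 cytokines and 3 growth factors were lower, and the medians were 0.96, 0.68, 0.80 and 1.09. Some classical factors did not pass the test. Il6 had 0.425, 2.10 and 4.61 CPM in control and 1.82, 1.86 and 4.01 CPM in treated mice (log2 fold change 0.11, SE 0.75, adjusted p = 0.928), and Ccl2 had 11.1, 8.64 and 11.4 CPM in control and 18.7, 14.3 and 11.7 CPM in treated mice (log2 fold change 0.53, SE 0.35, adjusted p = 0.287). Cxcl1 was under 1 CPM in every mouse of both groups. None of them was a DEG in untreated senescent cells.

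Cxcl14, a chemokine, was raised in both senescent groups, with 12, 9.80 and 10.1 CPM in control, 134, 126 and 104 CPM in untreated senescent and 124, 119 and 123 CPM in treated mice. Its log2 fold change against control was 3.53 (SE 0.20, adjusted p = 5.99e-07). Il33, an alarmin, had 0.845, 1.40 and 25.5 CPM in treated mice against 0.170, 0.0196 and 0 CPM in control. Mouse 6 held most of that level (log2 fold change 7.24, SE 1.69, adjusted p = 0.00658), and without it the log2 fold change was 4.17. Cxcl15 had no count in control and 1.82, 0.871 and 0.900 CPM in treated mice, at least 39.1-fold higher by a limit of 3 counts over the control group. Icam1, an adhesion receptor for leukocytes, had 0, 0.275 and 0.0470 CPM in control, 8.82, 5.65 and 9.24 CPM in untreated senescent and 23.9, 22.1 and 17.2 CPM in treated mice, a log2 fold change of 7.24 ± 0.73 (adjusted p = 2.17e-05).

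Csf1, the growth factor of macrophages, lay on the other side. It had 2415, 2024 and 2193 CPM in control, 1696, 2103 and 1577 CPM in untreated senescent and 625, 552 and 576 CPM in treated mice. Untreated senescent cells did not pass the test against control (log2 fold change -0.30, SE 0.19, adjusted p = 0.36), while treated cells were lower than control (log2 fold change -1.92, SE 0.20, adjusted p = 2.56e-05) and lower than untreated senescent cells (log2 fold change -1.62, SE 0.20, adjusted p = 0.0015). The EGF receptor ligand Hbegf (-2.34) and the placental growth factor gene Pgf (-1.71) were the growth factors below control. Both were also below untreated senescent cells, by 2.08 and 2.23 on the log2 scale, a call that held in 11 of 16 other settings for Hbegf and 17 of 17 for Pgf.

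Plaur, the receptor of the plasminogen activator urokinase, had 281, 240.0 and 245 CPM in control, 144, 137 and 152 CPM in untreated senescent and 43.9, 39.4 and 29.3 CPM in treated mice (log2 fold change -2.77, SE 0.20, adjusted p = 2.74e-06 against control). Serpinb2, an inhibitor of plasminogen activators, had 14.3, 7.99 and 8.27 CPM in control, 11.1, 8.10 and 11.8 CPM in untreated senescent and 0.125, 0.189 and 0.208 CPM in treated mice. It was nearly lost in treated cells alone of these groups (log2 fold change -5.84, SE 0.51, adjusted p = 8.81e-06), and untreated senescent cells gave 0.02 (SE 0.39, adjusted p = 0.984) against control.

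Other secreted factors were far above control. Igf1 (ENSMUSG00000020053, chr10:87693642-87772904, plus strand in GRCm39), insulin-like growth factor 1, had 0.935, 1.55 and 3.29 CPM in control, 5.43, 7.80 and 3.67 CPM in untreated senescent and 26.7, 35.1 and 49.7 CPM in treated mice. The 3 groups did not overlap, and treated cells were higher than control (log2 fold change 4.28, SE 0.50, adjusted p = 5.81e-05) and than untreated senescent cells (log2 fold change 2.72, SE 0.46, adjusted p = 0.00792). Igfbp3, which binds it, had 1.83, 1.49 and 0.987 CPM in control and 46.6, 31.7 and 72.7 CPM in treated mice (5.12), and Angpt1, a ligand of the Tek receptor, 0.722, 0.609 and 0.141 CPM in control and 34.1, 30.3 and 24.3 CPM in treated mice (5.86). Angpt1 was also higher than in untreated senescent cells (2.84, adjusted p = 0.00956). Igfbp3 was not a DEG there (1.32, adjusted p = 0.0537) but was called in 8 of 17 other settings. Adamts1, a metalloprotease that cleaves proteoglycans, had 106, 85.1 and 52.6 CPM in control, 135, 125 and 33.1 CPM in untreated senescent and 805, 682 and 811 CPM in treated mice. It was higher in treated cells than in control (log2 fold change 3.23, SE 0.43, adjusted p = 0.000149) and than in untreated senescent cells (log2 fold change 2.97, SE 0.42, adjusted p = 0.00387). Mmp13, a collagenase, had 0.212, 0.0785 and 0.0470 CPM in control and 9.30, 8.4 and 13.7 CPM in treated mice (log2 fold change 6.53, SE 0.85, adjusted p = 0.000133), with all of its sequence in a single transcript, and 6.17 with the offset. Mmp9, a gelatinase, was lower (-4.78).

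Matrix genes moved in both directions. Of 59 extracellular matrix genes, 18 were higher and 6 lower than in control, against 4 higher and 5 lower in untreated senescent cells. Against untreated senescent cells 11 were higher and 2 lower in treated cells (7 and 2 with the replicate block). Col3a1, a fibrillar collagen of soft tissue, had 431, 736 and 381 CPM in control, 861, 838 and 919 CPM in untreated senescent and 1994, 2040.4 and 2777 CPM in treated mice. Treated mice were above all others (log2 fold change 2.14, SE 0.28, adjusted p = 0.000157 against control and 1.38, SE 0.28, adjusted p = 0.0164 against untreated senescent cells). The 3 matrix DEGs with the largest increase in log2 fold change encode small leucine-rich proteoglycans, which space collagen fibrils. Dcn rose from 1.57, 0.726 and 0.893 to 39.2, 37.5 and 168 CPM (6.28), Prelp from 2.17, 0.903 and 0 to 230.1, 147 and 52.4 CPM (7.12) and Lum from 0.0850, 0.0982 and 0 to 6.73, 4.32 and 8.75 CPM (6.51, a single-transcript gene). Treated mouse 6 had the highest Dcn and the lowest Prelp of the treated mice. Compared with untreated senescent cells, Dcn (2.33, adjusted p = 0.0477) and Lum (3.29, adjusted p = 0.0399) were higher. These calls held in 8 of 17 and 7 of 14 other settings. Prelp was not a DEG in that comparison (2.00, adjusted p = 0.19).

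Lox, the enzyme that crosslinks collagen and elastin, had the largest gain in CPM of all DEGs, from 3701, 4365 and 6002 CPM in control to 8908, 7907 and 13427 CPM in treated mice (log2 fold change 1.10, SE 0.30, adjusted p = 0.0168). Untreated senescent mice, at 7114, 9224 and 4178 CPM, overlapped both, and the call against control was lost without treated mouse 6 (0.84). Itga11, a collagen receptor, had 116, 158 and 116 CPM in control, 435, 356 and 229 CPM in untreated senescent and 869.9, 772 and 1359.6 CPM in treated mice, which did not overlap (log2 fold change 2.94, SE 0.29, adjusted p = 2.12e-05). Ccdc80, a secreted matrix-bound protein, changed by 1.95, and Fbln5, an elastic fibre protein, by 1.37 (0.95 without treated mouse 6, which ends the call). On the lower side Col6a3 had 1754, 1349 and 1189 CPM in control and 351, 225 and 322 CPM in treated mice (log2 fold change -2.26, SE 0.39, adjusted p = 0.00103), and the basement membrane collagen gene Col15a1 had 30.0, 18.5 and 15.1 CPM in control, 30.4, 25.7 and 17.4 CPM in untreated senescent and 4.13, 2.69 and 2.42 CPM in treated mice (-2.78 against control and -2.99 against untreated senescent cells). Tnc, tenascin C, was lower at -1.12, and without control mouse 6 it was -0.69 and not called. Neither Col6a3 (-0.74, adjusted p = 0.304) nor Tnc (-0.59, adjusted p = 0.21) was a DEG between treated and untreated senescent cells.

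Actin and contractile genes, which form the stress fibres of spread fibroblasts, were counted next. Of 39 actin and contractile genes, 10 were lower and 3 higher than in control, with a median of -0.66. In untreated senescent cells 1 was lower and 3 were higher than in control, with a median of 0.01, and in the direct comparison 9 were lower in treated cells. The summed level of the list was 36417 to 40374 CPM in treated mice, 62308 to 69134 CPM in control and 54115 to 69344 CPM in untreated senescent mice. With RLE scaling 6 were lower than control, and without control mouse 6 there were 5, with medians of -0.58 and -0.45.

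Actb, beta-actin, had 7306, 7662 and 6821 CPM in control, 4375, 5155 and 6059 CPM in untreated senescent and 2665, 2656 and 3049.9 CPM in treated mice. The treated mice were below all others (log2 fold change -1.38, SE 0.18, adjusted p = 0.00012 against control). Actg1, gamma-actin, had 10431, 11110 and 10213 CPM in control and 4766, 4818 and 5842 CPM in treated mice. Its log2 fold change of -1.04 ± 0.19 (adjusted p = 0.00135) lay near the limit of 1, and 14 of 20 other settings did not call it, among them those that left out any 1 control mouse or treated mouse 4 or 5 (-0.998 to -0.86). Itga5, the fibronectin receptor subunit, had 2001, 2275 and 2989 CPM in control, 1429, 1765 and 2164 CPM in untreated senescent and 417, 470.4 and 405 CPM in treated mice. Treated cells were lower than control (log2 fold change -2.49, SE 0.22, adjusted p = 8.9e-06) and than untreated senescent cells (log2 fold change -2.05, SE 0.21, adjusted p = 0.000442), while untreated senescent against control gave -0.44 (SE 0.21, adjusted p = 0.2). Tagln2, an actin-binding protein, had 774, 724 and 603 CPM in control, 179, 187 and 386 CPM in untreated senescent and 66.8, 65.3 and 51.2 CPM in treated mice, in 3 steps without overlap (log2 fold change -3.52, SE 0.29, adjusted p = 7.25e-06 against control). Cd44, the hyaluronan receptor, had 1013, 759.8 and 872 CPM in control, 1201, 1026 and 709 CPM in untreated senescent and 392, 321 and 315 CPM in treated mice (log2 fold change -1.36, SE 0.26, adjusted p = 0.00172). The 3 that were higher than control, in untreated senescent cells too, were Myh11, Mylk and Synpo2. Myh11, smooth muscle myosin, had 92.4, 106 and 80.8 CPM in control, 238, 359.6 and 155 CPM in untreated senescent and 303, 315 and 267 CPM in treated mice (1.67), Mylk, a myosin light chain kinase, changed by 1.38 and Synpo2, an actin-binding protein, by 1.52.

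Immediate early genes and the feedback genes of ERK signaling, which growth factors switch on within minutes to hours, were lower in 11 of 35 and higher in 1. In untreated senescent cells 1 was lower and none higher than in control, and in the direct comparison 11 were lower and none higher in treated cells. Medians were -0.56 for treated and 0.01 for untreated senescent against control, and -0.85 for treated against untreated. With the offset 14 were lower than control, with a median of -0.90. The direct count was 11 with RLE scaling and 12 with the offset. Of the 35 genes, 12 have over 95% single-transcript sequence. The summed level was 754 to 1016 CPM in treated, 1334 to 1477 CPM in control and 1312 to 1449 CPM in untreated senescent mice.

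Etv4, an ETS factor induced by FGF and ERK signaling, had 73.0, 75.2 and 68.9 CPM in control, 33.3, 38.8 and 43.4 CPM in untreated senescent and 4.70, 4.96 and 2.39 CPM in treated mice. The groups lay in 3 steps, with log2 fold changes of -4.17 ± 0.31 (adjusted p = 3.06e-06) against control and -3.26 ± 0.30 (adjusted p = 0.000237) against untreated senescent cells. Egr2, a zinc finger immediate early gene, had 49.6, 54.5 and 104 CPM in control, 25.1, 32.8 and 51.4 CPM in untreated senescent and 1.94, 2.35 and 3.11 CPM in treated mice (log2 fold change -4.81, SE 0.85, adjusted p = 0.00116 against control). Arc had 7.31, 5.18 and 10.4 CPM in control, 5.05, 6.90 and 10.2 CPM in untreated senescent and 0.0939, 0.416 and 0 CPM in treated mice (log2 fold change -5.48, SE 0.93, adjusted p = 0.000881). For Arc, untreated senescent cells gave -0.05 against control. Klf4, a factor of quiescent cells, was the higher one (18.4, 14.1 and 5.26 CPM in control and 45.1, 39.9 and 18.6 CPM in treated mice, log2 fold change 1.46, SE 0.46, adjusted p = 0.0313), and the call was lost without control mouse 5 or 6 or treated mouse 4 or 5 (1.22 to 1.75).

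**Figure D4:**
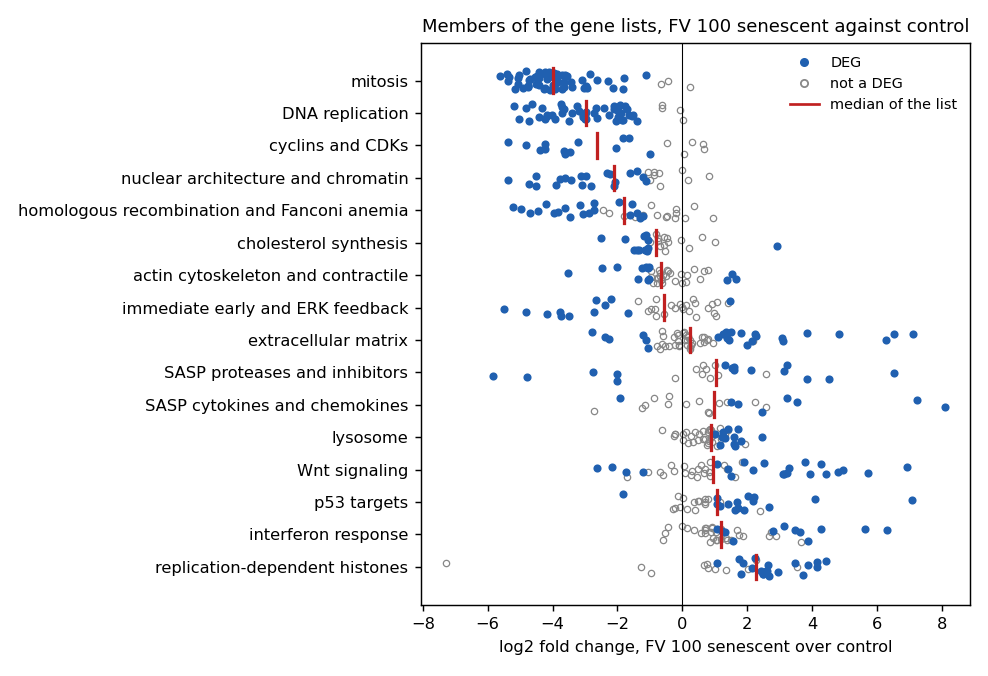
Log2 fold change of Fucoidan-FV-treated senescent over control MEFs (horizontal axis) for every tested member of 16 gene lists. Filled points are DEGs, open points are not, and red bars are list medians. Mitosis (median -4.00) and DNA replication (-2.98) lie almost wholly left of 0, whereas matrix, protease and Wnt genes spread to both sides.

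Genes of Wnt signaling were higher in 18 of 44 and lower in 4, with a median of 0.95, and 12 of the 44 have over 95% single-transcript sequence. In the 25 with under 65%, 6 were higher and 4 lower, and without control mouse 6, 17 of the 44 were higher and 1 lower. The higher ones included secreted antagonists, Sfrp4 (0.170, 0.883 and 0.564 CPM in control and 12.1, 8.59 and 31.7 CPM in treated mice, 4.95) and Wif1 (5.72), and the R-spondin receptor Lgr5 (0.127, 0.294 and 0 CPM in control and 23.9, 12 and 26.4 CPM in treated mice, 6.93). Compared with untreated senescent cells, Sfrp4 (1.49, adjusted p = 0.181), Wif1 (-0.91, adjusted p = 0.606) and Lgr5 (2.57, adjusted p = 0.0623) were not DEGs. Genes lower than in control included the transcriptional targets Lef1 and Axin2. Lef1, also a factor that acts with beta-catenin, had 15.2, 22.3 and 32.0 CPM in control, 17.3, 23.6 and 13.9 CPM in untreated senescent and 4.70, 3.71 and 2.7 CPM in treated mice (log2 fold change -2.64, SE 0.40, adjusted p = 0.000358 against control). Axin2, a feedback inhibitor, had 1.36, 2.34 and 6.63 CPM in control, 10.9, 10.3 and 4.76 CPM in untreated senescent and 0.344, 0.871 and 1.07 CPM in treated mice. Treated cells were below control (log2 fold change -2.17, SE 0.66, adjusted p = 0.0263) and below untreated senescent cells (log2 fold change -3.50, SE 0.68, adjusted p = 0.0153). The call against control was lost without control mouse 6 (-1.14), treated mouse 4 (-1.82) or treated mouse 5 (-2.27).

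Lysosomal genes were higher in 13 of 45 and lower in none, beside 10.3% and 9.37% of all genes. Their median was 0.89 against 0.72 in untreated senescent cells. Without control mouse 6, 21 were higher than in control. None was a DEG between treated and untreated senescent cells, where the median difference was 0.05. Ctsd, cathepsin D, had 817, 995 and 1242 CPM in control, 2869, 3172 and 3969 CPM in untreated senescent and 2655, 2475 and 4069 CPM in treated mice (log2 fold change 1.59, SE 0.24, adjusted p = 0.000379). Glb1, the gene of the lysosomal beta-galactosidase read by senescence stains, did not follow that order. It had 55.1, 65.1 and 85.5 CPM in control, 108, 121 and 159 CPM in untreated senescent and 88.2, 81.9 and 89.3 CPM in treated mice. Treated against control gave 0.34 (SE 0.21, adjusted p = 0.264) with overlapping groups, untreated against control gave 0.92 (SE 0.21, adjusted p = 0.0135), and treated against untreated gave -0.58 (SE 0.21, adjusted p = 0.142), so none of these was a DEG.

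Interferon response genes were higher in 12 of 43 and lower in none, beside 10.3% and 9.37% of all genes, with a median of 1.19. They were low in level: Ifit3, an antiviral effector, had 0.0850, 0.177 and 0.0940 CPM in control and 2.97, 2.80 and 1.66 CPM in treated mice (4.28, a single-transcript gene), and Nlrc5, the activator of MHC class I genes, had 0, 0.0393 and 0 CPM in control and 0.626, 1.14 and 1.56 CPM in treated mice (5.63). In untreated senescent cells 8 were higher than in control, and none differed between the senescent groups.

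Cholesterol synthesis and uptake genes were lower in 12 of 27 and higher in 1, the same counts as in untreated senescent cells, and the median was -0.82 in treated and -1.22 in untreated senescent cells. Without control mouse 6, 5 were lower in treated cells. Abca1, the cholesterol exporter, was the higher one (3.65, 4.77 and 2.58 CPM in control and 30.7, 33.3 and 20.03 CPM in treated mice, log2 fold change 2.92, SE 0.47, adjusted p = 0.000576), with 93.5% single-transcript sequence and 2.26 with the offset.

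Antioxidant genes had 3 higher and 3 lower of 32, and 2 higher and 7 lower with the offset. Without the offset the share called, 18.75%, was near the 19.7% of all genes. Txnrd1, thioredoxin reductase, had 838, 720.2 and 1088 CPM in control and 208, 208 and 230.1 CPM in treated mice (log2 fold change -2.03, SE 0.21, adjusted p = 2.25e-05), and the cystine transporter gene Slc7a11 changed by -2.91. The higher ones were the secreted enzymes Sod3 (5.44, a single-transcript gene) and Gpx3 (2.34, of which opposite-strand genes overlap 85.01%), and the glutathione transferase Gstm2 (1.01), whose fold change is near the limit and which lost its call with the mouse number as a block. Of 29 glycolysis and hypoxia genes 5 were higher and 2 lower, a share of 24.1% beside the same 19.7%. Slc16a3, the lactate exporter, had 435, 551 and 568 CPM in control and 182, 172 and 257 CPM in treated mice (-1.35), while Ndrg1, a hypoxia-responsive gene, had 7.78, 11.8 and 6.95 CPM in control and 26.8, 24.5 and 32.5 CPM in treated mice (1.65).

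The genes with the largest fold changes were mostly near 0 on 1 side. Elobl had no count in control and 13.6, 12.8 and 47.5 CPM in treated mice, at least 785-fold higher by a limit of 3 counts over the control group, and 3.55, 1.90 and 1.5 CPM in untreated senescent mice. Snhg11, a small nucleolar RNA host gene, also had no count in control and 6.64, 5.60 and 5.71 CPM in treated mice, at least 192-fold higher. Scn3b, a sodium channel subunit and p53 target, had 0, 0.0393 and 0 CPM in control and 14.0, 19.5 and 24.5 CPM in treated mice. Compared with untreated senescent cells, Snhg11 (0.26, adjusted p = 0.892) and Scn3b (1.44, adjusted p = 0.123) were not DEGs. Pamr1, a secreted protease-like protein, was at 0.637, 1.47 and 0.0470 CPM in control, 53.7, 49.3 and 40.4 CPM in untreated senescent and 193, 198 and 212 CPM in treated mice (log2 fold change 7.96, SE 0.58, adjusted p = 2.74e-06). Ednrb, the endothelin B receptor, was at 0.0425, 0.0196 and 0 CPM in control, 0.128, 0.302 and 0.272 CPM in untreated senescent and 5.98, 5.26 and 5.67 CPM in treated mice (log2 fold change 7.80, SE 0.72, adjusted p = 1.25e-05 against control and 4.58, SE 0.56, adjusted p = 0.00155 against untreated senescent cells). Serpinb1a, an inhibitor of neutrophil proteases, had 0.127, 0.236 and 0 CPM in control, 2.49, 1.68 and 1.97 CPM in untreated senescent and 32.5, 24.5 and 129 CPM in treated mice. H19, an imprinted growth-restraining RNA, was below control in untreated senescent mice by values that did not pass the test (179.5, 116 and 122 against 223, 221 and 161 CPM) and at 1087, 548 and 2747 CPM in treated mice (log2 fold change 2.86, SE 0.54, adjusted p = 0.00187 against control). Treated mouse 6 had the highest Elobl, Serpinb1a and H19 of the treated mice.

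The largest decreases were again genes of division, Sapcd2 (-7.95), Ska1 (-6.94), Dscc1 (-6.36, and -10.4 without treated mouse 4), Troap (-6.06) and Depdc1a (-5.86), together with Serpinb2 and the desmosomal plakophilin gene Pkp1 (18.6, 19.5 and 19.5 CPM in control and 0.157, 0.265 and 0.381 CPM in treated mice, -6.15). Other genes that lost many CPM were the ribosomal protein genes Rpsa (2964, 3093 and 2488 CPM in control and 865, 845 and 1123 CPM in treated mice, -1.59) and Rps2 (-1.52). Rpsa and Rps2 have many processed pseudogenes that can take part of their reads, so their values are uncertain. Hspa8, a constitutive chaperone, had 4448, 4464 and 4396 CPM in control and 2072, 1972 and 2595 CPM in treated mice, and its log2 fold change of -1.003 ± 0.19 (adjusted p = 0.00153) was not called in 17 of 20 other settings, among them those that left out any 1 control mouse or treated mouse 4 or 5 (-0.96 to -0.85).

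Markers of fibroblasts were high in every library, with a summed level of 31965 to 43414 CPM in control and 40684 to 48534 CPM in treated mice over 12 genes, of which Col3a1, Dcn and Lum were DEGs. Macrophage markers summed to 0.564 to 4.32 CPM in control, 2.84 to 13.6 CPM in untreated senescent and 6.04 to 14.0 CPM in treated mice. Of 8 tested 1 was a DEG, Lyz2, and the leukocyte gene Ptprc had 0.376, 0.644 and 1.04 CPM in treated mice. Endothelial markers summed to 1.22 to 2.46 CPM in control and 9.77 to 24.5 CPM in treated mice, carried by Erg (3.85, 3.10 and 11.3 CPM) and Tek (4.88, 4.77 and 7.96 CPM), while Pecam1 had 0.657, 0.0379 and 0.796 CPM, and Cdh5 and Cldn5 were too low to test. Of 6 tested, only Erg and Tek were DEGs. Chondrocyte markers went from 618 to 873 CPM in control to 125 to 232 CPM in treated mice, almost all of it Col2a1 (853, 689 and 616 CPM in control and 175, 140.1 and 112 CPM in treated mice), a collagen of cartilage, while Comp, another cartilage gene, was higher (4.48). Muscle markers summed to 104 to 195 CPM in control and 92.8 to 149 CPM in treated mice, neural markers to 34.5 to 78.9 and 66.1 to 93.8 CPM, and epithelial markers to under 1 CPM in both. No erythroid marker was tested. The part of cell makeup in the fold changes of matrix and interferon genes was not tested.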

How the data were processed

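Total RNA of MEFs was sequenced from stranded libraries per the labels. Per the submitters' processing notes, reads were checked with FastQC 0.12.1, trimmed with Trimmomatic, aligned with STAR 2.7.11b and quantified with RSEM 1.3.1. Whether reads were counted by strand is not given in the sources used here. The authors deposited RSEM expected counts per gene, beside TPM, which was not used for the tests. The table of all libraries and the single files held the same counts, with a largest difference of 0. Of 57010 genes, 56310 were matched to the GENCODE vM39 annotation (GRCm39). Because RSEM divides reads between overlapping and repeated genes by estimation, near-identical genes are uncertain.

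Expected counts were rounded, libraries 5(1) and 5(2) of control mouse 5 were summed, and genes passing edgeR's filter (minimum count 10, minimum total 15) were kept. Counts were TMM scaled and fitted in edgeR 4.0.16 (R 4.3.3, limma 3.58.1) with the quasi-likelihood test on all 4 groups, 3 mice each, without a mouse block. P-values were adjusted by Benjamini-Hochberg over all genes, and the SE is the absolute log2 fold change divided by the square root of F. P-values measure only the spread between these samples. Distances used log2 CPM with a prior count of 2. Where control counts were all 0, a fold was bounded with 3 counts over the group, for counting error only. The share of exonic bases held by a single annotated transcript was taken from the annotation.

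The labels give mouse 4, 5 and 6 in every group, so the numbers pair the samples by animal. Over 18 pairs of groups and mice, the correlation of same-numbered deviations from the group means had a median of -0.0063 (-0.2038 to 0.4252), and 8 were over 0.1. For control with treated senescent MEFs it was 0.3727, 0.1973 and 0.3673 in mice 4, 5 and 6. A fit with the mouse number as a block, DESeq2 1.42.0, other scalings and filters, and each mouse left out in turn were the alternatives. The scripts were tested on simulated data.

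The comparison, its gene lists and the genes named were chosen with earlier results of these data known, and part of the genes always named come from the study's own displays of these samples. Named were the 10 DEGs with the largest increase and decrease in log2 fold change (groups not overlapping, at least 5 CPM in the higher group, no provisional symbol), the 10 with the largest gain and loss of mean CPM, up to 3 DEGs per direction from each list, a set of senescence and repair genes given always, and the 4 promoters. Genes of the mitosis promoters, cell type markers and genes named as exceptions of a list lie partly outside the rule and were chosen after their values were seen. Some genes that the rule names are not reported here.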

Additional observations from a re-analysis of the deposited data

How the results depend on the processing

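DEGs of treated senescent against control MEFs numbered 2955, and 1066 in a test against a fold change of 2 (glmTreat). Of the other settings the count ran from 2188 in genes under 65% single-transcript sequence (fewer genes tested) to 4006 by adjusted p alone, with DESeq2 giving 3558 (61.5% higher) and RLE scaling 3002 (58.2% higher). Library 5(1) alone gave 3278 and library 5(2) alone 2508. Leaving out 1 mouse gave 2262 to 2700 DEGs. Untreated senescent against control MEFs had 1266, 699 with only the groups compared in the fit (fewer samples), 350 with glmTreat and 911 to 1456 without 1 mouse. Treated against untreated senescent MEFs had 405 (40.7% higher), 770 with DESeq2 (62.3% higher), 800 with no filter on low counts (534 higher), 168 with only the groups compared, 27 with glmTreat, and 136 to 365 without 1 mouse. RLE scaling gave 321 (54.2% higher). The cause was not tested where the number of genes or samples did not change.

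With the mouse number as a replicate block the 3 comparisons had 2819, 1137 and 321 DEGs, and 3214, 1420 and 441 with the block and the offset for single-transcript sequence. Of the named genes, Cdkn2b, Paxx, Ddb2, Hus1, Laptm4a, Zbp1 and Gstm2 lost their call against control in the paired fit, and no other gene described in the report did. The blocked fit did not call Dcn and Lum between treated and untreated senescent MEFs (adjusted p = 0.0869 and 0.0585). Over the settings with the same thresholds (adjusted p alone and glmTreat left out), calls between these groups held in 15 of 17 for Rpa1, 14 of 17 for Plk3 and Axin2, and 15 of 16 for Col3a1.

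The settings on single-transcript sequence (offset, its combination with the block, and genes under 65%) were added after seeing the data. Of the alternatives for named genes, 2846 kept direction and side of the threshold, 159 lost the call and 4 changed sign, all for genes not called: Glb1 (-0.037 with the offset for number of transcripts) and Il6 (-0.10 with library 5(2) alone, -0.28 without control mouse 4, -0.37 without treated mouse 6, and up to 1.12 without control mouse 6). List medians moved by more than the spread between mice in 123 of their alternatives and not in 417. Against control, the median changed sign in 9 of 20 settings for end joining, 11 of 20 for glycolysis and 1 of 20 each for nucleotide excision repair, sirtuins and antioxidant genes, and that of the 1 epithelial marker tested changed sign as well.

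The difference in distance from control between the senescent groups (0.235) ran from 0.135 (median absolute difference) to 0.294 (without control mouse 4) over its alternatives. The mean difference kept its direction, but by the median absolute difference the groups overlapped. With 3 mice a group, fold changes of genes near 0 CPM rest on few counts, and control mouse 6 stood apart. No value here separates senescence from time in culture.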
